A study of Arabidopsis thaliana with 12 samples.

Results

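When TRB4, TRB5 and CLF were all mutated in Arabidopsis, 52 genes had leaf transcript means of at least 3 times those of any of the other 3 genotypes studied. They were chosen on exactly that measure. Counts were scaled to a library total of 1000000 (CPM), and a gene was taken where its mean reached 1 CPM in the combined mutant and 3 times the highest mean of the other groups. Of 28775 genes in the table, 16219 had a mean of at least 1 CPM in the combined mutant and 54 met both conditions, of which 2 were set aside by name. All ratios of the combined mutant to the other groups therefore describe how the genes were picked, and no test is attached to them. All 52 genes code for proteins, and all were found in the RefSeq annotation, where 26 carry a symbol beyond their locus code. The label of the set, a peak in the combined mutant alone, held for its group means, but not for every library, as given below.

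The groups were trb45 clf29 (the line trb45-1 combined with clf29), clf29, trb45 (the line trb45-1) and WT (the Col0 accession), with 3 libraries each. All plants were stratified before growth and were otherwise untreated. They grew on soil with 16 h of light and 8 h of dark at 23 °C, and gave mature leaves at day 21. The trb45 mutations were represented by 1 line, and the further TRB lines of the design were not analysed here. The labels do not say whether libraries came from separate plants, so p-values measure the spread between these samples, which may be technical. One trb45 clf29 library has no replicate number in the table and is called the unnumbered library. Total counts ran from 53545914 to 53682961 in trb45 clf29, 53985071 to 54215882 in clf29, 45519206 to 54100770 in trb45 and 53923647 to 54047574 in WT. At these totals 3 counts, taken as the smallest level a library can show, correspond to a group mean of 0.0555 to 0.0590 CPM, which covers counting error only. Transcripts of the mutated genes were lower in the groups labelled as their mutants. CLF had 0.0931, 0.149 and 0.187 CPM in trb45 clf29, against 0, 0.0185 and 0.203 CPM in clf29, 16.1, 12.7 and 14.5 CPM in trb45, and 13.1, 10.9 and 13.0 CPM in WT. TRB5 averaged 1.27 ± 0.341 CPM in trb45 clf29, 16.9 ± 2.16 in clf29, 3.34 ± 1.43 in trb45 and 17.8 ± 1.42 in WT (SD, n = 3 each), so transcript of this gene was still counted in the trb45 plants. TRB4 averaged 1.21 ± 0.0576 CPM in trb45 clf29, 4.13 ± 0.351 in clf29, 2.41 ± 0.962 in trb45 and 5.72 ± 0.846 in WT (SD, n = 3 each).

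TRB proteins are Myb-type telomere repeat binding factors that recognise the telobox, a short telomere-like sequence found in many plant promoters, and members of the family interact with Polycomb repressive complex 2 (PRC2). CLF is a catalytic subunit of PRC2 and places the repressive methyl mark on lysine 27 of histone H3. In leaves PRC2 keeps developmental genes silent, and a loss of CLF gives small, curled leaves with expressed floral genes. Of the 52 genes 3 (PR1, BGL2 and PAD3) are on a list of the defence response around salicylic acid, a different programme. In that response the hormone is made from isochorismate, master transcription factors amplify its synthesis, W-box binding WRKY factors relay it, and pathogenesis-related proteins such as PR1 and the glucanase BGL2 (PR2) are its classical end products.

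The promoters below carry the motifs named above, and they were taken from the RefSeq TAIR10.1 assembly as the 300 bases before the annotated start of each gene, 5′ to 3′ on the strand of the gene. The first pair shows the telobox (AAACCCTA, either strand) in capitals, and the other sequences show the W-box core (TTGAC, either strand). The window of AT3G18330, an F-box gene, is chr3:6292321-6292620 (minus strand), and the others are AT3G62040 at chr3:22976604-22976903 (minus), BGL2 at chr3:21189968-21190267 (minus), GSTF7 at chr1:659981-660280 (minus) and SDR3 at chr2:19350651-19350950 (minus). The SDR3 window also holds part of the annotated gene AT2G47140.
AT3G18330: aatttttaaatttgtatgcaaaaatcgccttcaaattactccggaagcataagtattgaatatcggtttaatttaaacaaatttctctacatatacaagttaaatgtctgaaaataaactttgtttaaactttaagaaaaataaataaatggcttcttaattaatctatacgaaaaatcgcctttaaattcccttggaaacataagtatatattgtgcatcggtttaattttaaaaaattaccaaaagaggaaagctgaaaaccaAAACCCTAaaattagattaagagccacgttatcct
AT3G62040: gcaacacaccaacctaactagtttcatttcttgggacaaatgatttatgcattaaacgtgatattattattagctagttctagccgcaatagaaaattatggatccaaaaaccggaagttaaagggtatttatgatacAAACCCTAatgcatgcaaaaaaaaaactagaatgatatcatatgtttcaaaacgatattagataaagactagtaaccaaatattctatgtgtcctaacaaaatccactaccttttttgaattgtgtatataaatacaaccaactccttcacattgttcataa
BGL2: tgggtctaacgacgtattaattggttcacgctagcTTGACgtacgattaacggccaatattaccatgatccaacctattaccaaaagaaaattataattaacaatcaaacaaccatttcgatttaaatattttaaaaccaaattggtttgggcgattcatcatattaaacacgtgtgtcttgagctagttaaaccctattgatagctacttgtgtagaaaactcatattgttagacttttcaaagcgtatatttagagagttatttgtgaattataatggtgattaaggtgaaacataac
GSTF7: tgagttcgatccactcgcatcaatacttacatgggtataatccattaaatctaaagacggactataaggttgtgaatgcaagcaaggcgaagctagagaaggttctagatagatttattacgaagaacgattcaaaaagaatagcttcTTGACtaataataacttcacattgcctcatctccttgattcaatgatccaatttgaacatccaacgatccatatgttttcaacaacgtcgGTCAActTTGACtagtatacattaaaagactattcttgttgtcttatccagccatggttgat
SDR3: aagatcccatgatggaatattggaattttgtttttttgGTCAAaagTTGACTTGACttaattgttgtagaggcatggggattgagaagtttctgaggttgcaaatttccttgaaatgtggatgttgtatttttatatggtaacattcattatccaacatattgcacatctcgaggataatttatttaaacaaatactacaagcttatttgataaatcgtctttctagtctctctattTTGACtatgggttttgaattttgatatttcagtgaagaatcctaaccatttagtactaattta

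A telobox was present before 3 of the 52 genes (5.77%), AT3G18330, AT3G62040 and BGL2, and before 5.17% of the 26704 protein-coding genes whose window could be read. The W-box core was present before 28 of 52 (53.8%), against 50.4% of all genes. The GA repeat GAGAGAGA, which is read by factors that recruit Polycomb complexes, stood before 2 of 52 (3.85%), against 5.66% of all, and the G-box CACGTG before 6 of 52 (11.5%), against 7.19%. These are descriptions of letters in a window, and a match is not a shown binding site.

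The 3 trb45 clf29 libraries did not carry the set equally, and the genes fell into 3 classes by how they did so. In 19 genes each trb45 clf29 library alone was at least 3 times the highest mean of the other groups. In 17 more genes all 3 trb45 clf29 libraries stood above all 9 other libraries, but the lowest of them was under that ratio. In the remaining 16 genes replicate 1 of trb45 clf29 lay within the range of the other 9 libraries or below it. Thus 36 of 52 genes separated fully by library; 4.39% of the 19138 genes tested did so, but the rule used this contrast, so nothing is read from the difference. The 16 genes of the third class summed to 8.62 CPM in replicate 1 of trb45 clf29, 136 CPM in replicate 2 and 78.6 CPM in the unnumbered library, against 18.1, 6.09 and 10.5 CPM in clf29, 10.8, 7.71 and 9.40 CPM in trb45, and 10.2, 15.7 and 11.5 CPM in WT. Replicate 1 was thus at the level of the other groups for these genes, and the class owes its place to the other pair of trb45 clf29 libraries. The 19 genes of the first class summed to 63.4, 79.8 and 73.2 CPM in trb45 clf29 replicate 1, replicate 2 and the unnumbered library, against 8.76, 6.65 and 7.27 CPM in clf29, 5.43, 5.32 and 5.55 CPM in trb45, and 3.53, 3.71 and 3.21 CPM in WT. This class was formed on a high level in each trb45 clf29 library, so sums far above those of every other library follow from that choice. The median level of its genes was 1.73, 3.15 and 2.30 CPM in trb45 clf29, in the same order of libraries. In bulk leaf RNA more cells of a type and more RNA per cell cannot be told apart, which applies to all levels given here.

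**Figure D1:**
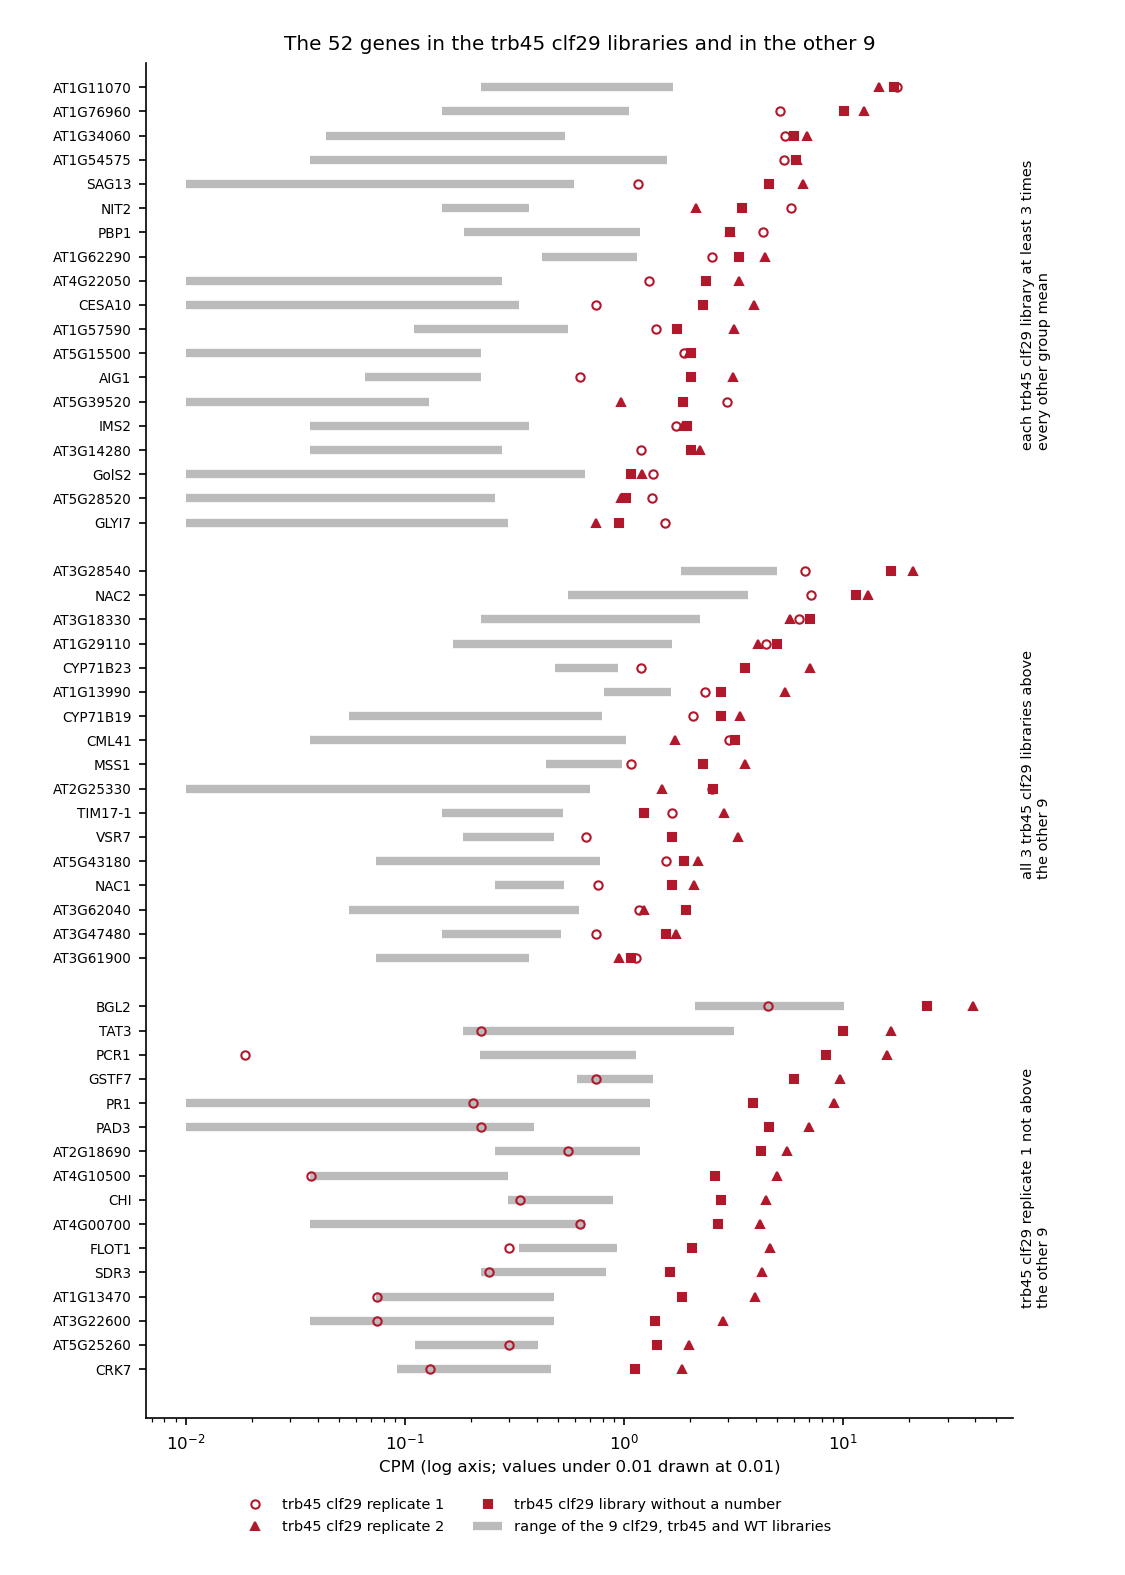
CPM on a log axis for each of the 52 genes in the trb45 clf29 libraries (red: open circle replicate 1, triangle replicate 2, square the unnumbered library) and the range of the 9 clf29, trb45 and WT libraries (grey bar), in 3 classes. In the 16 genes of the lowest block the open circle lies on the grey bar or left of it, while in the other 36 all red points lie to its right.

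The first class held genes that were clear of the other genotypes in every trb45 clf29 library. AT1G11070, which encodes a hydroxyproline-rich glycoprotein family protein, had 17.6, 14.6 and 17.1 CPM in trb45 clf29, against 1.02, 1.07 and 1.68 CPM in clf29, 0.943, 0.659 and 0.814 CPM in trb45, and 0.259, 0.223 and 0.241 CPM in WT. AT1G34060, a pyridoxal phosphate-dependent transferase gene, had 5.42, 6.87 and 5.98 CPM in trb45 clf29, against 0.537, 0.148 and 0.314 CPM in clf29, 0.259, 0.0439 and 0.296 CPM in trb45, and 0.426, 0.241 and 0.0556 CPM in WT. Its 3 other groups overlapped each other, so the gene was high in the combined mutant and low elsewhere. AT5G39520, which encodes a protein with an uncharacterised domain, had the largest ratio of the set, 34.9, with 2.96, 0.970 and 1.87 CPM in trb45 clf29, against 0, 0.0741 and 0.0553 CPM in clf29, 0.129, 0 and 0.0370 CPM in trb45, and 0.0370, 0.0742 and 0 CPM in WT. All 3 other means were near the smallest level a library can show, so the ratio rests on a handful of counts in its denominator, and the gene overlaps another on the opposite strand. CESA10, a cellulose synthase catalytic subunit gene, had 0.745, 3.92 and 2.30 CPM in trb45 clf29, against means of 0.123 CPM in clf29, 0.126 CPM in trb45 and 0.130 CPM in WT. NIT2, a nitrilase of the family that converts indole-3-acetonitrile to auxin, had 5.77, 2.13 and 3.45 CPM in trb45 clf29, against means of 0.277 CPM in clf29, 0.207 CPM in trb45 and 0.204 CPM in WT. In NIT2 replicate 1 was the highest library of its group, unlike in the defence genes described below. AT5G15500, an ankyrin repeat gene, had 1.88, 1.98 and 2.04 CPM in trb45 clf29, and no library of another group exceeded 0.222 CPM. AT1G76960, which encodes an uncharacterised protein, had 5.16, 12.5 and 10.1 CPM in trb45 clf29, against means of 0.50 CPM in clf29, 0.637 CPM in trb45 and 0.519 CPM in WT.

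Genes linked to cell death and pathogen recognition were also in this class, though replicate 1 was their lowest trb45 clf29 library. SAG13, a dehydrogenase gene used as a marker of senescence and cell death, had 1.15, 6.55 and 4.61 CPM in trb45 clf29, and its highest level elsewhere was 0.593 CPM in clf29 replicate 1. AIG1, which is induced when plants recognise a bacterial effector, had 0.633, 3.15 and 2.04 CPM in trb45 clf29, against means of 0.167 CPM in clf29, 0.0960 CPM in trb45 and 0.148 CPM in WT. Over the class, the highest trb45 clf29 library was a median of 1.86 times the lowest, with a range of 1.08 to 5.67 over the genes. Replicate 2 was the highest trb45 clf29 library in 10 of these 19 genes and replicate 1 in 7.

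The second class was led by AT3G28540, a nucleoside triphosphate hydrolase gene, with 6.69, 20.8 and 16.6 CPM in trb45 clf29, against 2.72, 2.15 and 1.83 CPM in clf29, 5.01, 3.01 and 2.85 CPM in trb45, and 3.0, 2.50 and 2.65 CPM in WT. NAC2 (AT3G15510), a NAC transcription factor gene, had 7.13, 13.0 and 11.5 CPM in trb45 clf29, against 3.70, 1.96 and 2.58 CPM in clf29, 1.74, 1.47 and 1.65 CPM in trb45, and 0.833, 0.556 and 1.02 CPM in WT. In both genes replicate 1 of trb45 clf29 was the lowest of its group and still above every other library. NAC1, a NAC factor of auxin signalling in lateral roots, had 0.764, 2.09 and 1.66 CPM in trb45 clf29, and its highest level elsewhere was 0.535 CPM in clf29 replicate 3. MSS1, the hexose transporter also known as STP13, had 1.08, 3.56 and 2.30 CPM in trb45 clf29, and its highest level elsewhere was 0.983 CPM in WT replicate 2. The genes nearest above the ratio of 3 were AT1G13990 (3.01), AT5G43180 (3.08) and MSS1 (3.10), all in this class. Those nearest below were the receptor-like protein gene RLP41 (2.96), AT1G24145 (2.88) and the cytochrome P450 gene CYP71B4 (2.87). AT4G12490 had a ratio above 3 but missed the level, with a mean of 0.970 CPM in trb45 clf29.

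The third class of 16 genes held several classical defence genes. BGL2 had 4.53, 39.3 and 24.1 CPM in trb45 clf29, against 10.1, 2.11 and 5.04 CPM in clf29, 5.36, 3.01 and 3.92 CPM in trb45, and 3.68, 5.60 and 3.63 CPM in WT, with the trb45 clf29 values in the order replicate 1, replicate 2 and unnumbered library, as throughout. PR1 had 0.205, 9.10 and 3.88 CPM in trb45 clf29, against 1.31, 0 and 0.682 CPM in clf29, 0.111, 0.0439 and 0.0740 CPM in trb45, and 0.0740, 0.223 and 0.0927 CPM in WT. Replicate 1 of trb45 clf29 sat below clf29 replicates 1 and 3 for both genes, and both also varied among the clf29 libraries. PAD3, the cytochrome P450 of the last step in the synthesis of camalexin, an antimicrobial indole, had 0.224, 6.98 and 4.58 CPM in trb45 clf29, and no other library exceeded 0.389 CPM. The tyrosine aminotransferase gene TAT3 had 0.224, 16.5 and 9.97 CPM in trb45 clf29, against 0.556, 0.482 and 0.184 CPM in clf29, 0.628, 0.352 and 0.463 CPM in trb45, and 0.444, 3.17 and 1.70 CPM in WT. PCR1, a small membrane protein gene named for cadmium resistance, had 0.0186, 16 and 8.40 CPM in trb45 clf29, against means of 0.352 CPM in clf29, 0.292 CPM in trb45 and 1.1 CPM in WT. For PCR1 replicate 1 was the lowest of all 12 libraries and replicate 2 the highest. Replicate 1 held 1 count, so replicate 2 was at least 285-fold higher than a floor of 3 counts in that library, the widest gap of the class. AT4G10500, which encodes a salicylic acid hydroxylase, had 0.0373, 5.02 and 2.60 CPM in trb45 clf29 and at most 0.297 CPM elsewhere.

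The rest of the class comprised the glutathione transferase gene GSTF7, the chitinase gene CHI, the flotillin genes FLOT1 and AT5G25260, the short-chain dehydrogenase gene SDR3, the receptor-like kinase gene CRK7, AT2G18690, AT4G00700, AT1G13470 and AT3G22600. In all 16 genes replicate 1 was the lowest trb45 clf29 library and replicate 2 the highest. This order was found in 36 of the 52 genes and in 32.9% of all genes with at least 1 CPM. The median ratio of replicate 2 to replicate 1 was 16.6 over the class, and that of the unnumbered library to replicate 1 was 8.42. The class was formed on a low trb45 clf29 library beside a high group mean, so wide ratios follow from that choice. The median ratio of replicate 2 to replicate 1 was 1.04 across all genes with at least 1 CPM. Among those genes, 71 had at least 3 times as much in replicate 2 as in replicate 1, and in all 71 the unnumbered library lay in between; 2 genes had the opposite gap. Of the 71 genes 23 belonged to the set and 48 did not. The 48 included, chosen after their values were seen, the wall-associated kinase gene WAK1 with 23.6, 84.1 and 57.9 CPM in trb45 clf29, DMR6, another salicylic acid hydroxylase gene, with 8.92, 28.2 and 17.6 CPM, and the pathogen-response gene LURP1 with 4.94, 54.4 and 30.1 CPM. Their means were 29.2, 15.4 and 6.97 CPM in clf29, 16, 8.29 and 1.27 CPM in trb45, and 31.8, 18.8 and 13.0 CPM in WT, in the same gene order. What set replicate 1 apart was not tested.

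**Figure D2:**
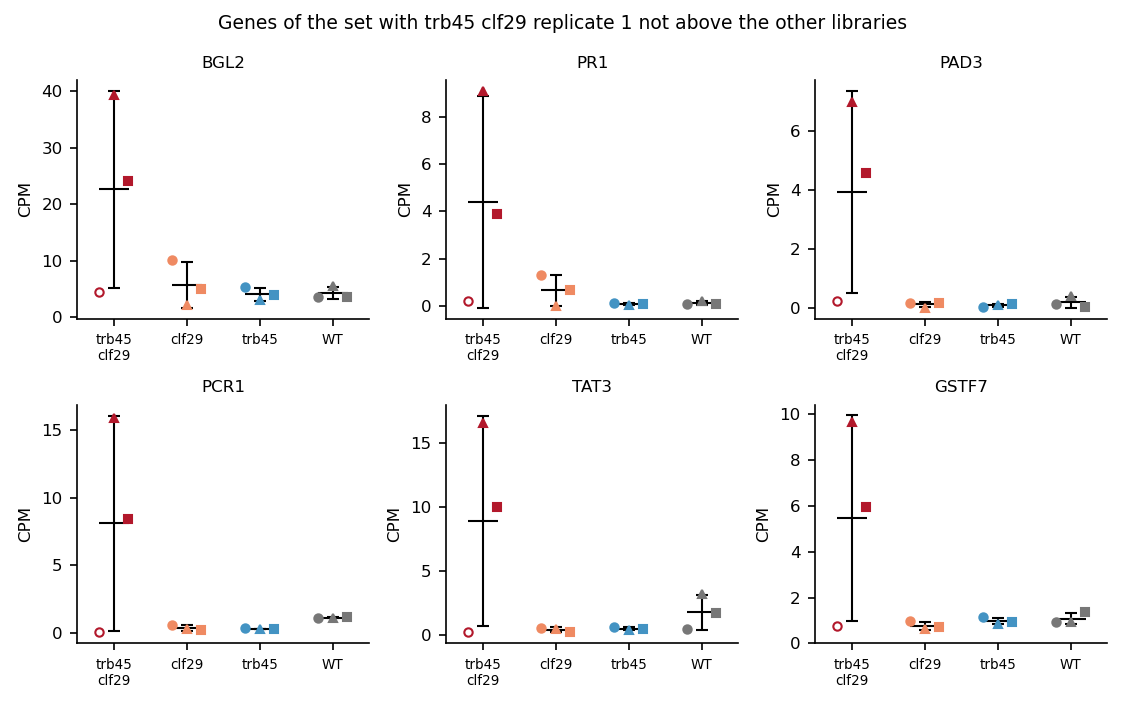
CPM in each library for 6 genes of the third class, by group, with the mean and SD over 3 libraries as black bars (circle replicate 1, triangle replicate 2, square replicate 3 or, in trb45 clf29, the unnumbered library). In trb45 clf29 the open circle lies within or below the range of the other groups in every panel, the triangle is highest and the square in between.

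The promoters shown above include 3 from this class. The W-box core stood before 13 of its 16 genes (81.25%), against 7 of 19 (36.8%) in the first class, 8 of 17 (47.1%) in the second and 50.4% of all genes. SDR3 had 4 matches, GSTF7 had 3 and BGL2 had 1 in this window. The classes were formed on the levels, so these shares are a description with no test.

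The genes were then set against WT in clf29 and in trb45, each by itself, a difference the rule did not use: it capped the levels in these groups but not the difference of either from WT. The fit across all genes was edgeR's quasi-likelihood test on 12 libraries with 4 group means, with p-values adjusted over 19138 genes (Benjamini-Hochberg) and a threshold of 0.05. All 52 genes passed the filter on low counts, but only 44 would have passed it on the 9 other libraries alone, so the counts describe the genes that were measured and give no support on their own. In clf29 against WT 14 genes were higher and 1 was lower, where 18.5% of all genes tested were called higher and 16.2% lower. In trb45 against WT 11 were higher and 0 lower, where 14.5% and 11.2% of all genes were called. Beside that 0 from edgeR, 0 were lower at an unadjusted p under 0.05, and DESeq2 called 0. In either direction 34.7% of all genes were called in clf29 and 25.7% in trb45. The median log2 fold change of the 52 genes was 0.44 in clf29 against WT, and 0.0039 over all genes, and 0.23 in trb45 against WT, and 0.011 over all genes. Among the genes that pass the filter without trb45 clf29, 12 were higher and 1 lower in clf29, and 11 higher and 0 lower in trb45. Both comparisons share the WT libraries. With library size alone in place of TMM scaling, the share of higher calls among all calls in clf29 against WT was 36.6%, in place of 53.3%, while the counts of the 52 genes were the same.

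All the calls came from the first and second classes: 6 higher and 1 lower of 19, and 8 higher of 17, in clf29 against WT, and 4 higher of 19 and 7 higher of 17 in trb45 against WT. None of the 16 genes of the third class was called in either comparison. The class was formed on a wide gap between the trb45 clf29 libraries, and the fit uses the same estimate of the spread for all 4 groups. The gap therefore widens the spread used in these comparisons too, so this count of 0 is not read as a trait of the genes. That count of 0 changed with the libraries in the fit. Without trb45 clf29 replicate 1, PCR1, TAT3 and AT4G10500 were lower in clf29 than in WT, by −1.55, −2.05 and −1.64 on the log2 scale (edgeR adjusted p = 0.00265, 0.0101 and 0.0350). They were then also lower in trb45 than in WT, by −1.92, −1.90 and −2.16 (edgeR adjusted p = 9.50e-04, 0.0171 and 0.0162), and PR1 was higher in clf29 by 2.42 (edgeR adjusted p = 0.0390). AT4G10500 was at the floor in trb45 and had at most 0.111 CPM in clf29 and 0.297 CPM in WT. Its fold changes therefore depend on the prior count, and its calls support nothing. With only the 6 libraries compared, PCR1 and TAT3 were lower in both comparisons and PR1 higher in clf29, while AT4G10500 was not called. The fold changes hardly moved between these fits, and the calls changed with the SE. In clf29 against WT the SE of PCR1 was 1.07 with all 12 libraries and 0.339 without trb45 clf29 replicate 1. For TAT3 it was 1.03 and 0.553, and for PR1 1.25 and 0.857.

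Genes higher than WT in both clf29 and trb45 numbered 10, and WT was their lowest group. Of all 19138 genes tested, 4.95% were called higher in both, and the comparisons share the WT libraries. AT1G11070, whose values are given above, was higher by 2.46 on the log2 scale in clf29 (SE 0.25, edgeR adjusted p = 2.51e-06) and by 1.72 in trb45 (SE 0.27, edgeR adjusted p = 2.33e-04). AT1G54575, which encodes an uncharacterised protein, had 5.40, 6.16 and 6.13 CPM in trb45 clf29, against 1.57, 1.44 and 1.49 CPM in clf29, 0.370, 0.439 and 0.370 CPM in trb45, and 0.0370, 0.0742 and 0.0741 CPM in WT. The 4 groups of this gene did not overlap. On the log2 scale it exceeded WT by 4.64 in clf29 (SE 0.26, edgeR adjusted p = 3.46e-09) and by 2.60 in trb45 (SE 0.32, edgeR adjusted p = 2.51e-05). The F-box gene AT3G18330, whose promoter with a telobox 35 bases before the start is shown above, had 6.33, 5.73 and 7.10 CPM in trb45 clf29, against 1.81, 2.22 and 1.86 CPM in clf29, 0.628, 1.05 and 0.851 CPM in trb45, and 0.222, 0.278 and 0.297 CPM in WT. Again no group overlapped another, and its log2 excess over WT was 2.97 in clf29 (SE 0.24, edgeR adjusted p = 2.24e-07) and 1.64 in trb45 (SE 0.26, edgeR adjusted p = 2.99e-04).

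CML41, a calmodulin-like calcium sensor that acts at plasmodesmata during defence, had 3.02, 1.72 and 3.21 CPM in trb45 clf29, against 1.02, 0.741 and 0.738 CPM in clf29, 0.518, 0.483 and 0.50 CPM in trb45, and 0.0370, 0.0371 and 0.0371 CPM in WT. Each WT library was under 3 counts, so against a floor of 3 counts per library the means are at least 47.7-fold (trb45 clf29), 15-fold (clf29) and 9.0-fold (trb45) higher. The TRAF-like gene AT2G25330 was at 0 in every WT library, and had 2.53, 1.49 and 2.56 CPM in trb45 clf29, 0.667, 0.482 and 0.701 CPM in clf29, and 0.0370, 0.176 and 0.222 CPM in trb45. These means are at least 39.5-fold, 11.1-fold and 2.61-fold higher than the same floor. Both genes passed the threshold in clf29 (edgeR adjusted p = 1.33e-06 for CML41 and 2.84e-05 for AT2G25330) and in trb45 (edgeR adjusted p = 3.23e-05 and 0.00457). AT1G29110, a cysteine proteinase gene, differed from the genes above in that clf29 and trb45 overlapped, with 4.45, 4.10 and 5.02 CPM in trb45 clf29, against 1.35, 1.37 and 1.11 CPM in clf29, 1.66, 1.58 and 0.925 CPM in trb45, and 0.167, 0.668 and 0.334 CPM in WT. Its log2 excess over WT was 1.79 in clf29 (SE 0.35, edgeR adjusted p = 0.00129) and 1.81 in trb45 (SE 0.35, edgeR adjusted p = 0.00146). PBP1, a lectin that binds the ER body glucosidase PYK10, had 4.30, 3.04 and 3.04 CPM in trb45 clf29, against 0.593, 1.07 and 0.590 CPM in clf29, 0.758, 1.19 and 0.944 CPM in trb45, and 0.315, 0.185 and 0.222 CPM in WT. It was higher by 1.73 in clf29 (SE 0.35, edgeR adjusted p = 0.00149) and by 1.97 in trb45 (SE 0.34, edgeR adjusted p = 5.54e-04). The others called in both were NAC2, AT5G43180 and TIM17-1, a mitochondrial import subunit gene. Their trb45 calls were lost without WT replicate 1, and also without WT replicate 2 for NAC2 and TIM17-1, without WT replicate 3 and trb45 replicate 2 for AT5G43180 and TIM17-1, and without trb45 replicate 3 for TIM17-1. The clf29 call of TIM17-1 was lost without any 1 WT library or without clf29 replicate 2 or 3.

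**Figure D3:**
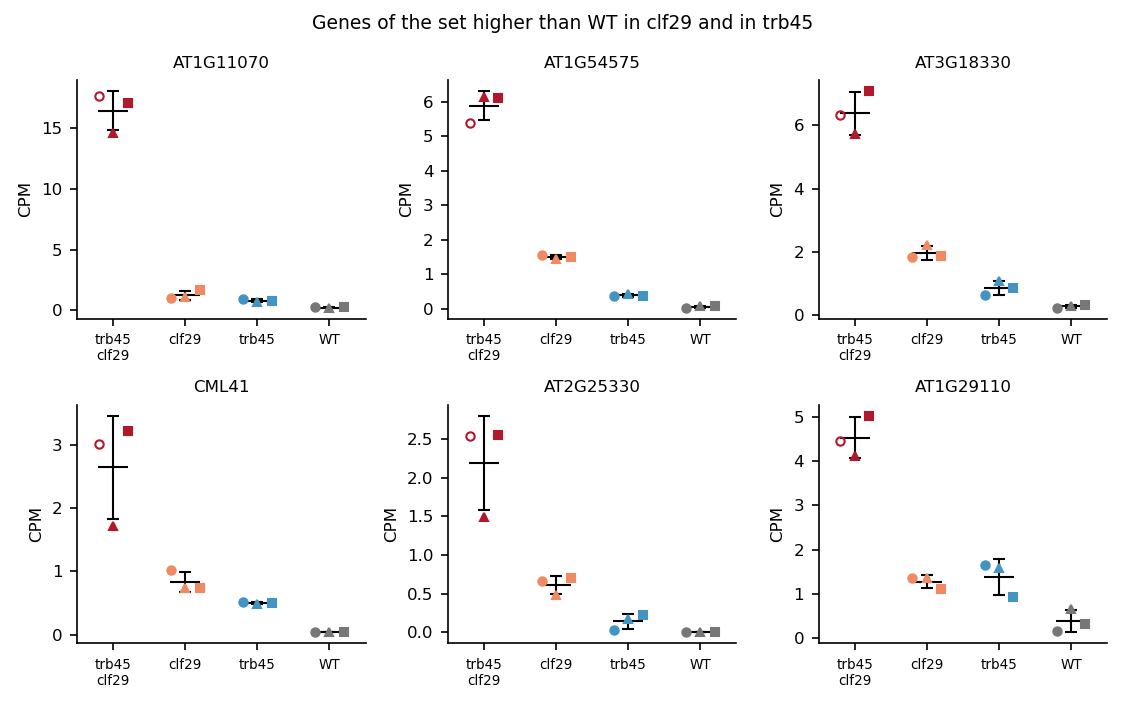
CPM in each library for 6 genes that were higher than WT in both clf29 and trb45, with the mean and SD over 3 libraries as black bars (circle replicate 1, triangle replicate 2, square replicate 3 or, in trb45 clf29, the unnumbered library). The trb45 clf29 points lie above those of the other 3 groups in each panel, and WT is lowest.

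In clf29 but not trb45, 4 more genes were called higher: the cytochrome P450 gene CYP71B19, the aspartyl protease gene AT4G22050, the lectin gene AT5G28520 and the glyoxalase gene GLYI7. CYP71B19 had 2.07, 3.40 and 2.78 CPM in trb45 clf29, against 0.648, 0.704 and 0.793 CPM in clf29, 0.0739, 0.176 and 0.333 CPM in trb45, and 0.222, 0.111 and 0.0556 CPM in WT, a log2 excess of 2.53 in clf29 (SE 0.45, edgeR adjusted p = 5.42e-04). AT4G22050 and GLYI7 were at the floor in WT, and clf29 was at least 3.66-fold and 4.44-fold above it (edgeR adjusted p = 0.00760 and 2.68e-04). AT4G22050 and AT5G28520 passed the filter on low counts only through the trb45 clf29 libraries, where the rule had chosen them as high, so their calls support nothing. In trb45 but not clf29, IMS2, a synthase gene of the methionine-derived glucosinolate pathway, was called higher by 2.16 (SE 0.66, edgeR adjusted p = 0.0242), a call lost without WT replicate 1 or 2. It had 1.73, 1.87 and 1.94 CPM in trb45 clf29, against 0.370, 0.0370 and 0.0738 CPM in clf29, 0.296, 0.308 and 0.259 CPM in trb45, and 0.0370, 0.0371 and 0.111 CPM in WT. Whether clf29 and trb45 differed in any of these genes was not tested. GolS2, a galactinol synthase of the drought-induced raffinose pathway, was the 1 gene lower than WT in clf29, by −2.68 (SE 0.74, edgeR adjusted p = 0.0120). It had 1.36, 1.21 and 1.08 CPM in trb45 clf29, against 0.0741, 0 and 0.0738 CPM in clf29, 0.296, 0.0879 and 0.222 CPM in trb45, and 0.148, 0.668 and 0.222 CPM in WT, and without WT replicate 2, its highest WT library, the call was lost.

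**Figure D4:**
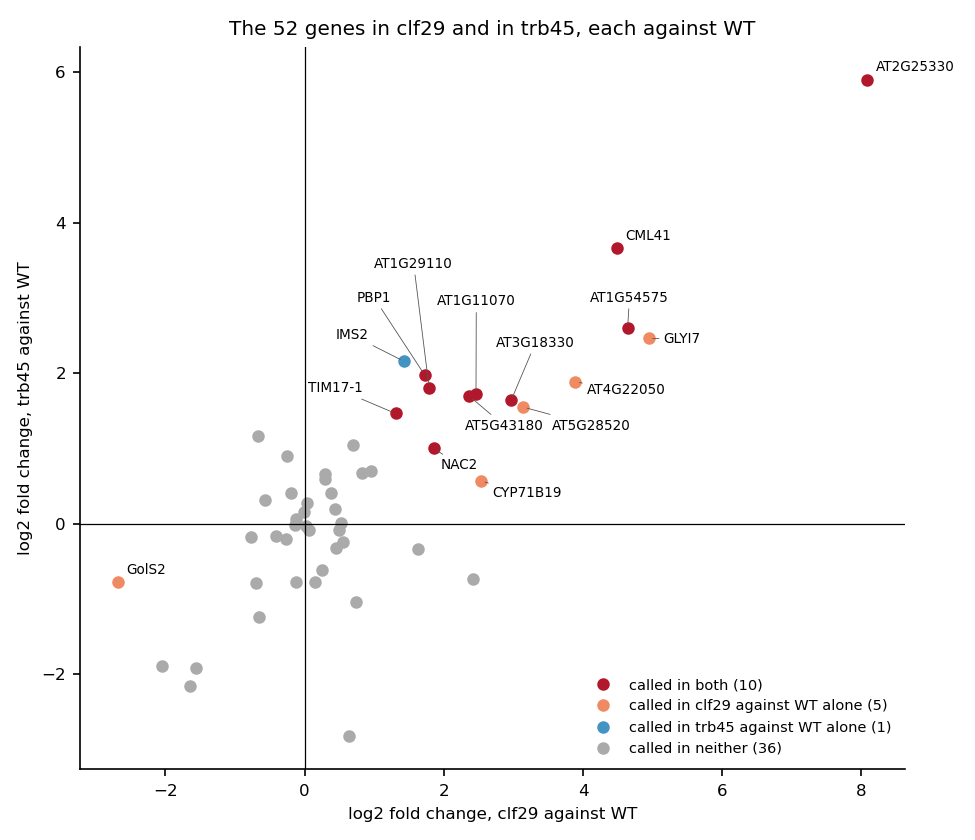
Log2 fold changes of the 52 genes in clf29 against WT (x axis) and in trb45 against WT (y axis), each point a gene, coloured by the comparison in which it was called. The 10 genes called in both lie in the upper right, GolS2 is the 1 gene called lower, and 36 genes were called in neither; fold changes of genes at the floor in WT depend on the prior count.

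The highest of the other means was that of clf29 in 24 genes, trb45 in 15 and WT in 13. The order trb45 clf29, clf29, trb45, WT from high to low was found in 15 genes. WT was the lowest group in 23 genes, 11 of them in the first class and 0 in the third. The shares of all genes with these orders were not computed, so nothing is read from the counts. As a yardstick, the trb45 clf29 mean was set beside the level that would follow if the clf29 and trb45 ratios to WT multiplied, which was computed for the 45 genes with a WT mean of at least 3 counts per library. It was above that level in 42 of them, by a median factor of 4.94 over the 45 genes and a range of 0.616 to at least 147.5, with means below the floor set to it. AT3G18330 was at 1.02 times the product, PBP1 at 1.15, AT1G29110 at 0.993 and AT5G43180 at 0.917, and AT1G54575 was below it at 0.616. These 5 genes were all higher than WT in both clf29 and trb45. So were NAC2 at 1.90 and TIM17-1 at 1.81 times the product, and CML41 and AT2G25330, for which no product was computed. Levels above WT in both groups make the product large, so a low ratio is partly built in for such genes. AT1G11070, also called in both, stood at 3.91 times the product, and AT1G34060, called in neither, at 22.1 times. The highest was AT4G10500, at least 147.5 times the product, with its trb45 level at the floor. The rule favours a high observed level, so this is a description and carries no test.

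The salicylic acid pathway was followed in a list of 14 genes, 3 of which, PR1, BGL2 and PAD3, are in the set. The tests on the other 11 gave no single direction. Of the 8 that could be tested, 4 were higher and 1 lower in trb45 clf29 than in clf29, where 17.2% and 14.2% of all genes were called (31.4% in either direction). Against trb45, 2 were higher and 0 lower (15.8% and 14.7% of all genes, 30.5% in either direction), and against WT 2 were higher and 3 lower (25.9% and 22.6%, 48.5% in either direction). Beside the 0 lower against trb45 from edgeR, 1 was lower at an unadjusted p under 0.05, and library size alone in place of TMM also gave 1; no other tool was run on this list. The 3 comparisons share the trb45 clf29 libraries. In clf29 against WT 1 of the 8 was higher and 6 lower (18.5% and 16.2% of all genes, 34.7% in either direction). In trb45 against WT 0 were higher, at an unadjusted p under 0.05 too, and 4 lower (14.5% and 11.2% of all genes, 25.7% in either direction). SARD1, a master transcription factor of salicylic acid synthesis, had 2.76, 6.34 and 4.54 CPM in trb45 clf29, against 0.537, 1.09 and 0.848 CPM in clf29, 4.47, 3.56 and 3.66 CPM in trb45, and 2.72, 3.54 and 3.26 CPM in WT. It was lower in clf29 than in WT by −1.85 on the log2 scale (SE 0.29, edgeR adjusted p = 1.68e-04), and higher in trb45 clf29 than in clf29 by 2.48 (SE 0.28, edgeR adjusted p = 8.86e-06). ICS1, the isochorismate synthase that makes the hormone's precursor, had 7.49, 13.7 and 10.6 CPM in trb45 clf29, against 11.9, 13.3 and 12.6 CPM in clf29, 10.2, 10.3 and 9.59 CPM in trb45, and 17.4, 17.7 and 18.8 CPM in WT. It was below WT in all 3 mutants, by −0.64 in trb45 clf29 (SE 0.14, edgeR adjusted p = 0.00166), −0.42 in clf29 (SE 0.14, edgeR adjusted p = 0.0297) and −0.86 in trb45 (SE 0.14, edgeR adjusted p = 3.99e-04). PR5, a thaumatin-like pathogenesis-related gene, was highest in clf29, with 16.2, 22.3 and 18.3 CPM in trb45 clf29, against 37.1, 41.0 and 40.7 CPM in clf29, 11, 11.4 and 10.9 CPM in trb45, and 15.5, 16.5 and 16.4 CPM in WT.

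All 11 list genes outside the set had the same library order as the third class, with replicate 1 lowest, replicate 2 highest and the unnumbered library in between. Of all genes with at least 1 CPM, 32.9% had replicate 1 lowest and replicate 2 highest. The 8 list genes outside the set with at least 1 CPM had a median ratio of replicate 2 to replicate 1 of 2.01. ALD1, which makes the precursor of the systemic signal pipecolic acid, had 0, 1.88 and 0.784 CPM in trb45 clf29, and at most 0.111 CPM in any other library. FMO1, which converts pipecolic acid to its active form, had 0, 0.410 and 0.261 CPM in trb45 clf29 and was at 0 in the other 9 libraries. Among genes with at least 1 CPM on other lists, the same order held in 3 of 7 jasmonate response genes and 3 of 5 leaf mesophyll markers. It also held in 3 of 6 FLC clade genes, 2 of 2 mutated genes and 1 of 1 tapetum and pollen genes. It held in 1 of 8 iron deficiency genes and in 0 of 7 anthocyanin genes. These lists were picked with their values seen and are a description with no test. Leaving out trb45 clf29 replicate 1 gave 7 of the list's genes outside the set called higher than trb45 and 5 higher than WT, where 14.1% and 23.4% of all genes were called higher. Leaving out replicate 2 gave 1 and 0, where 13.5% and 24% of all genes were called higher; over all libraries left out in turn the counts ran from 1 to 7 and from 0 to 5.

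**Figure D5:**
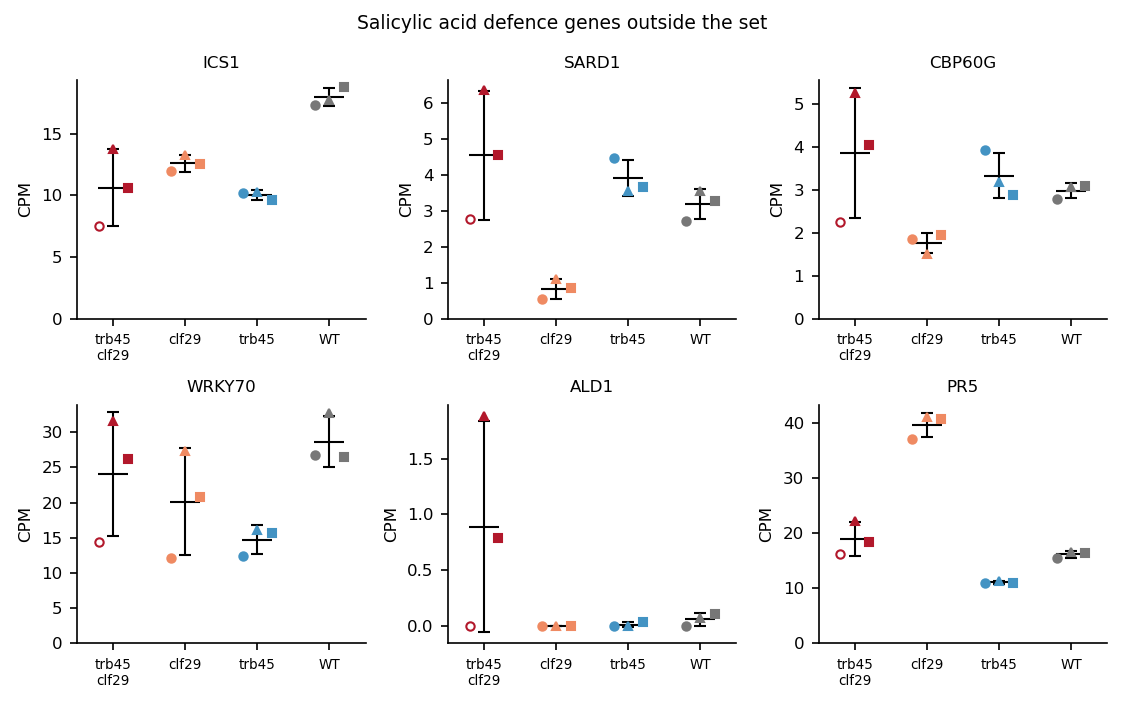
CPM in each library for 6 salicylic acid defence genes outside the set, with the mean and SD over 3 libraries as black bars (circle replicate 1, triangle replicate 2, square replicate 3 or, in trb45 clf29, the unnumbered library). In trb45 clf29 the open circle is lowest and the triangle highest in each panel, while the level relative to WT differs from gene to gene.

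Marker lists of leaf and of other tissues were read in the same libraries, and their part in the levels of the set was not tested. The 5 leaf mesophyll markers summed to 74438 to 78116 CPM in trb45 clf29, 68491 to 71300 in clf29, 71253 to 76597 in trb45 and 66178 to 69569 in WT. The 9 tapetum and pollen genes summed to 2.55 to 3.84 CPM in trb45 clf29, 10.6 to 22.8 in clf29, 3.84 to 6.60 in trb45 and 3.23 to 4.83 in WT. The 6 root markers stayed at or under 0.187, 0.204, 0.407 and 0.260 CPM in trb45 clf29, clf29, trb45 and WT, with 3, 2, 3 and 4 of them at 0 in every library of the group. The 7 seed markers summed to 0.486 to 0.857, 0.221 to 0.259, 1.54 to 2.09 and 0.297 to 0.370 CPM in these groups, with 5 at 0 in each. The 3 shoot meristem markers summed to 0.298 to 0.373 CPM in trb45 clf29, 0.259 to 0.996 in clf29, 0 to 0.0439 in trb45 and 0 in WT.

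By position, 16 of the genes lie on chromosome 1, 8 on chromosome 2, 15 on chromosome 3, 5 on chromosome 4 and 8 on chromosome 5. Only the flotillin genes FLOT1 and AT5G25260 are direct neighbours in the annotation. Both belong to the third class, and in trb45 clf29 FLOT1 had 0.298, 4.66 and 2.05 CPM and AT5G25260 had 0.298, 1.98 and 1.42 CPM. Of the 60 neighbours with at least 1 CPM, none outside the set reached a ratio of 2 by the measure of the rule. Few of all genes with at least 1 CPM reached that ratio (their number is given below), so nothing is read from this. Some neighbours below 1 CPM reached a ratio of 2: NAC3 beside NAC2 (5.03), CRK8 beside CRK7 (2.94), AT2G43580 beside CHI (2.87) and AT3G22620 beside AT3G22600 (2.24). Their trb45 clf29 means were at most 0.361 CPM, and the remaining neighbours below 1 CPM were under a ratio of 2 or had none. The use of strand in counting is not given in the sources used here, and 7 genes of the set overlap a counted gene on the opposite strand: NAC1, CESA10, AT3G14280, AT3G62040, VSR7, AT5G25260 and AT5G39520. For AT3G62040 the partner AT3G62030 had 1821 CPM in trb45 clf29 and 1437 CPM in WT, against means of 1.44 and 0.222 CPM for the gene itself, so its level is uncertain. Reads of the close relatives of CYP71B19, GSTF7, NIT2 and PBP1 may also have been shared out in ways that cannot be seen here.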

How the data were processed

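The authors deposited raw counts for each gene, from stranded mRNA libraries per the labels' protocols. HISAT2, DESeq2 and the build TAIR10 are named, without their roles, per the submitters' processing notes. The counting program and its use of strand are not given in the sources used here. Counts were used as deposited. The 12 value columns were matched to groups by name, with 0 unused.

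CPM is the count divided by the column sum, times 1000000. The rule was applied to group means. Symbols, neighbours and promoter sequences come from RefSeq TAIR10.1, in which all 52 locus codes were found. The test was edgeR 4.0.16 (glmQLFit, glmQLFTest; R 4.3.3) with filterByExpr defaults (minimum count 10, minimum total 15), which kept 19138 genes, and TMM scaling. SE is the log2 fold change divided by the square root of F. A fold against a group with at most 3 counts in each library is a lower bound against 3 counts per library. On simulated counts for 19138 genes, 200 of them changed, 84% of 2-fold and 92% of 4-fold changes were recovered in clf29 against WT, with 6.38% of calls false, and 81% and 98% in trb45 against WT, with 4.79% false. The changed genes were drawn at random from all genes tested, so these rates need not hold for the 52 genes, many of which had low levels.

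The 52 genes, the 19 gene lists and the tests were chosen with earlier results of these data known. Genes were named by a written rule: the 10 highest means, the 10 largest ratios, list members, up to 6 genes called in both clf29 and trb45, the 3 highest WT means, those nearest the threshold and adjacent members. Other genes were named to complete a class or a count of calls. Alternatives covered scaling, filters, thresholds, DESeq2 1.42.0, the replicate number as a block and each library left out. The alternatives for the salicylic acid list, for the count of genes above all other libraries and for the rule on 2 libraries were chosen after seeing the data.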

Additional observations from a re-analysis of the deposited data

How the results depend on the processing

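The set has 52 genes by the rule as given. It had 59 with CPM on TMM-scaled or RLE-scaled library sizes, 78 at a mean of 0.5 CPM and 52 with the median in place of the mean, 47 of them shared. It had 103 genes at a ratio of 2, 23 at a ratio of 5, 33 at a mean of 2 CPM, and 11 when the lowest trb45 clf29 library had to exceed the highest other library 3 times. With a library left out it ran from 38 (without trb45 clf29 replicate 2, 37 of them shared) to 73 (without replicate 1, 49 shared). Of the 73 chosen without replicate 1, that library was itself at least 3 times the highest other mean in 24 and at or below that mean in 29; of the 38 chosen without replicate 2, that library was so in 33, and below in 0. Without replicate 1 all 52 genes lay above the other 9 libraries in the remaining pair of trb45 clf29 libraries. The rule had used that pair, and the share of all genes that did so was not computed, so nothing is read from this count.

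The 14 genes higher in clf29 against WT ranged from 13 to 15 with a library left out, the 1 lower from 0 to 4, the 11 higher in trb45 from 8 to 11, and the 0 lower from 0 to 3. With only the 6 libraries compared, 2 were lower in clf29 and 2 in trb45. At an adjusted p under 0.01, 7 were higher in trb45 and 0 lower in clf29. DESeq2 gave 15 higher and 1 lower in clf29, adding AT5G15500, and 11 higher and 0 lower in trb45. Over 516 alternative fold changes of called genes, 26 lost the threshold and 0 changed sign. A further 4 could not be given, since with only the 6 libraries compared AT4G22050, AT5G28520 and GolS2 in clf29 and AT2G25330 in trb45 did not pass the filter, so these calls are missing there. The losses concerned TIM17-1 (6 in clf29 and 6 in trb45), AT5G43180 (5 in trb45), IMS2 (4), NAC2 (3 in trb45) and GolS2 (2), and the cause was not tested.

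Replicate numbers come from the titles and are not said to pair libraries. Of 15 same-number pairs, 2 had deviations from the group means correlated over 0.1 (range −0.25 to 0.32), and 4 of 11 numbered libraries correlated best with a library of their own number. In a fit that takes replicate number as block (11 numbered libraries), 14 genes were higher and 1 lower in clf29, and 10 higher and 0 lower in trb45.

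With library size alone, higher calls were 25.2% of all calls in trb45 clf29 against trb45 (51.8% with TMM) and 37.0% against WT (53.3%), and the median of all genes moved to −0.13 and −0.097. No replicate pair agreed within sampling noise (chi-square per degree of freedom 6.62 to 29.6). Levels under 0.0555 CPM are below what 3 counts can show.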
